A study of Homo sapiens with 6 samples.

Results

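Immediate-early response genes are the transcripts that cells switch on first after serum, growth factors, stress or handling. The 10 genes followed here were FOS, FOSB, FOSL1, JUN, JUNB, EGR1, EGR3, ATF3, IER2 and DUSP1, chosen by name from 60671 annotated genes, and all 10 were found in the expression matrix, whose unit is TPM (an abundance per transcript length, brought to a total of 1000000 in 5 of the 6 samples). RNA-seq had been performed on orthotopic xenografts of MDA-MB-231, a human breast cancer line without hormone receptors or amplified HER2, and the samples were 3 of tumor core (TC) and 3 of tumor margin (TM). All tumors came from wild-type (WT) MDA-MB-231 cells injected into the mammary fat pad of female NOD/SCID/IL2Rγ-null (NSG) mice aged 6 to 8 weeks, a strain that lacks lymphocytes but keeps stroma, vessels and myeloid cells, and no drug was given to either group. Each group came from 3 mice. The labels did not say which core and margin samples came from the same tumor or how long the tissue was handled before RNA extraction, so p-values measured only the spread between these samples.

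In the textbook account, the members form a short relay. Growth factor and stress kinases act on transcription factors that already sit at the promoters, such as SRF with its ELK partners and CREB, and the genes are transcribed within minutes without new protein synthesis. FOS, FOSB and FOSL1 pair with JUN and JUNB to form the AP-1 transcription factor, EGR1 and EGR3 are zinc finger transcription factors, ATF3 is a stress-induced factor of the ATF/CREB family, IER2 is a short-lived nuclear protein, and DUSP1 is a phosphatase that switches the MAP kinases off again. In triple-negative breast cancer lines FOSL1 is known for a steady, high expression that goes with the mesenchymal state, in contrast to the brief pulse of FOS.

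Of the 8 marker genes listed for the line, 6 overlapped between zones, all but ESR1 and ERBB2. Of the 13861 genes compared below, 22.2% did not overlap. VIM lay between 3797 and 5283 TPM, CD44 between 197 and 267 TPM, the keratin genes KRT8 and KRT18 between 356 and 575 TPM, and EPCAM between 3.66 and 6.02 TPM. The hormone receptor genes ESR1 and PGR did not exceed 0.13 and 0.22 TPM in any sample, too low for that comparison. ERBB2, which encodes HER2, was at 22.3 to 24.1 TPM in TC and 30.8 to 40.7 TPM in TM, but was not called (log2 difference -0.59, limma adjusted p = 0.128). TM replicate 3 stood apart from the other libraries, since loci assembled outside the annotation summed to 21.1 TPM there against 1573.7 to 2643 TPM in the other 5, and its column summed to 994381. No step that parts mouse from human reads was described, so host RNA that aligned to human genes and tumor RNA cannot be told apart, nor can fewer cells of a type and less RNA per cell.

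The control sequences of the members are shown first because such elements are known from this class of genes. In the 250 bases before the RefSeq start sites (GRCh38.p14), 8 of the 10 members had an entry, with 9 start sites among them. The half-site of the cyclic AMP response element, TGACG on either strand, was present in 7 of these 8 genes (FOS, FOSB, JUN, JUNB, EGR1, IER2 and DUSP1) and in 21.2% of all 35116 promoters of the same length. The sequence TATAAA was found on either strand in 5 of the 8 (FOS, FOSB, JUNB, DUSP1 and, 230 bases upstream, ATF3) and in 10.7% of all promoters. The RefSeq start of JUN lies inside its GENCODE gene. The full element TGACGTCA, which contains the half-site on both strands, was found in DUSP1 alone (1.65% of all promoters). Within the 250 bases, only EGR1 held the CArG box, the core of the serum response element, in 2 copies. This box was in 1.16% of all promoters. The EGR motif GCGNGGGCG, also in EGR1 alone, was in 8.41% of all promoters. The AP-1 motif TGANTCA was in none of the 8 and in 6.57% of all promoters. These matches describe letters in a short window, and they were not tested for binding. Sequence farther upstream was not searched, so a motif missing here, such as the CArG box in FOS, may lie outside the window. The stretch from 150 to 25 bases before the start is given for 4 members, with half-sites, CArG boxes and TATAAA in capitals.
FOS, chr14:75278678-75278803, plus strand: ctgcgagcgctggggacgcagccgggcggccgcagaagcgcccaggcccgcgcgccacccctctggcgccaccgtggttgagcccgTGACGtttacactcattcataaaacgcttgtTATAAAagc
EGR1, chr5:138465329-138465454, plus strand: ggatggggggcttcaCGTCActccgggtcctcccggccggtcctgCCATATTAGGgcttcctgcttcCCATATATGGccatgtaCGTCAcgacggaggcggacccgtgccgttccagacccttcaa
DUSP1, chr5:172771220-172771345, minus strand: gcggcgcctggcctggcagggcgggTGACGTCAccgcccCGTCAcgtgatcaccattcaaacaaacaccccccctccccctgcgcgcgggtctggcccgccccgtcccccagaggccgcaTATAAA
JUNB, chr19:12791336-12791461, plus strand: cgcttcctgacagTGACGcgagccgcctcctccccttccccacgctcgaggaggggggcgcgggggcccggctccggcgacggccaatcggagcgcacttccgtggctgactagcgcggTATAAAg

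The members also share a compact build and, to differing degrees, the AU-rich pentamer ATTTA, which is known to mark short-lived messages for decay. In 1 principal transcript per gene (GENCODE v29), 9 of the 10 members spanned less than 10000 bases, from 1820 bases in JUNB to 8307 in FOSL1, with ATF3 at 12108, whereas 22.3% of 11768 tested protein-coding genes were that short and their median span was 27846 bases. The number of ATTTA in the 3′ UTR was 5 in FOS, 4 in DUSP1, 3 in each of FOSB, JUN, EGR3 and ATF3, 2 in JUNB, 1 in FOSL1 and in EGR1, and 0 in IER2, against a median of 2 over the tested genes. Per 1000 bases of 3′ UTR this was 6.20 in FOS, 5.95 in DUSP1 and 1.5 in FOSL1, with a median of 1.58. At least 1 copy was present in 9 of the 10 members and in 68.7% of the tested genes. The longer form TTATTTA followed by 2 bases of A or T occurred in 2 members (FOS and DUSP1) and in 19.6% of the tested genes. A stretch of 29 bases around the longer form is shown for these 2, and around the single ATTTA for FOSL1, with ATTTA in capitals (GRCh38).
FOS, chr14:75282060-75282088, plus strand: tgtttttaATTTATTTAttaagatggatt
DUSP1, chr5:172768643-172768671, minus strand: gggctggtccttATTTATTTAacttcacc
FOSL1, chr11:65892272-65892300, minus strand: agggcagctgctATTTAttttcctaaaga

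Per length, the levels of the members spanned a wide range, and their order by mean level was the same in both zones except that FOS and ATF3 changed places. The mean over the 6 samples was 157 TPM for DUSP1, 146 for FOSL1, 94.6 for JUN, 82.5 for JUNB, 61.5 for IER2, 36.1 for EGR1, 15.4 for FOS, 14.9 for ATF3, 4.88 for FOSB and 0.32 for EGR3. Neighbors from DUSP1 down to IER2 overlapped in their sample ranges, as did EGR1 with FOS and FOS with ATF3. The ranges of IER2 and EGR1, of ATF3 and FOSB, and of FOSB and EGR3 did not overlap. FOSL1 and DUSP1 each exceeded 93.7% of the tested genes in mean log2(TPM + 1), while FOS exceeded 55.2% and FOSB 26.9%.

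**Figure D1:**
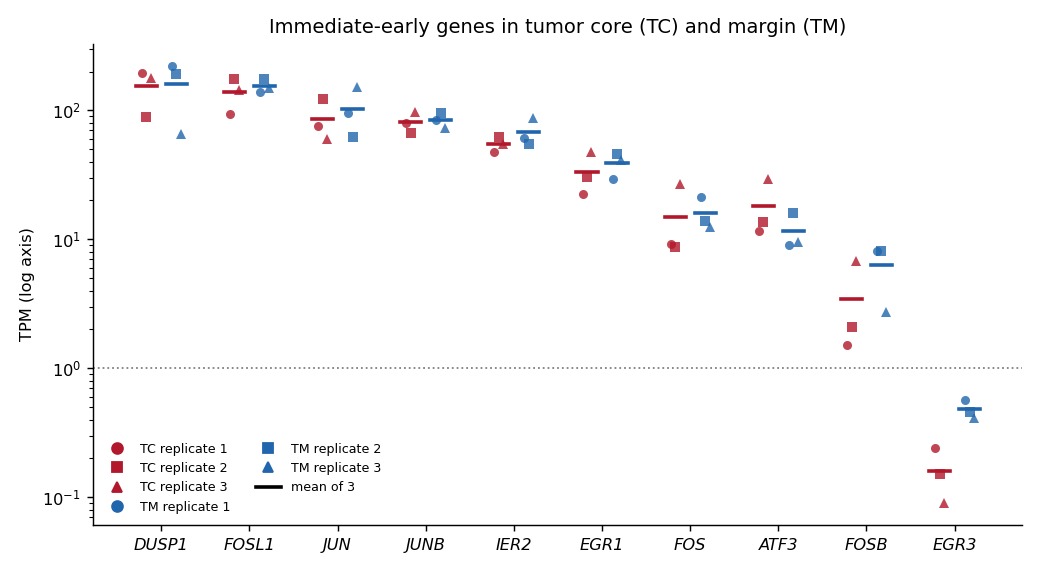
TPM of each member (log axis) in the TC samples (red) and TM samples (blue), with the mean of 3 as a bar and a dotted line at 1 TPM. The 2 zones overlap in every gene above that line, while EGR3, below it, is at 0.09 to 0.24 TPM in TC and 0.41 to 0.57 TPM in TM.

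To ask whether the immediate-early program differed between TC and TM, the zones were compared by limma on log2(TPM + 1), over 13861 genes that reached 1 TPM in 3 or more samples. Of the 10 members 9 were tested, EGR3 being too low. None of the 9 had an adjusted p-value under 0.05, the threshold for a call (0 of 9, against 0.137% of all tested genes, with 0.130% lower and 0.00721% higher in TC), and 0 of the 9 had an unadjusted p-value under 0.05 (16.2% of all tested genes, with 14.2% lower and 1.93% higher in TC). The values of TC and TM overlapped in all 9, whereas they did not overlap in 22.2% of the tested genes (18.9% lower and 3.28% higher in TC). The point estimate was lower in TC for 7 members and higher for 2 (DUSP1 and ATF3), and 67.0% of all tested genes were lower in TC. The median difference was -0.22 on the log2 scale over the 9 members and -0.14 over all tested genes. Both the sign counts and the medians moved with the scaling of the samples. After median-of-ratios rescaling the median was -0.01 over the members, with 5 lower and 4 higher, and 0.050 over all genes. After quantile normalization it was -0.11 over the members, with 6 lower and 3 higher, and 0.014 over all genes. Under median-of-ratios rescaling the differences of FOS, JUN, EGR1 and IER2 shrank to between -0.07 and -0.01, and those of FOSL1 and JUNB became 0.01 and 0.15. After quantile normalization JUNB was at 0.02.

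**Figure D2:**
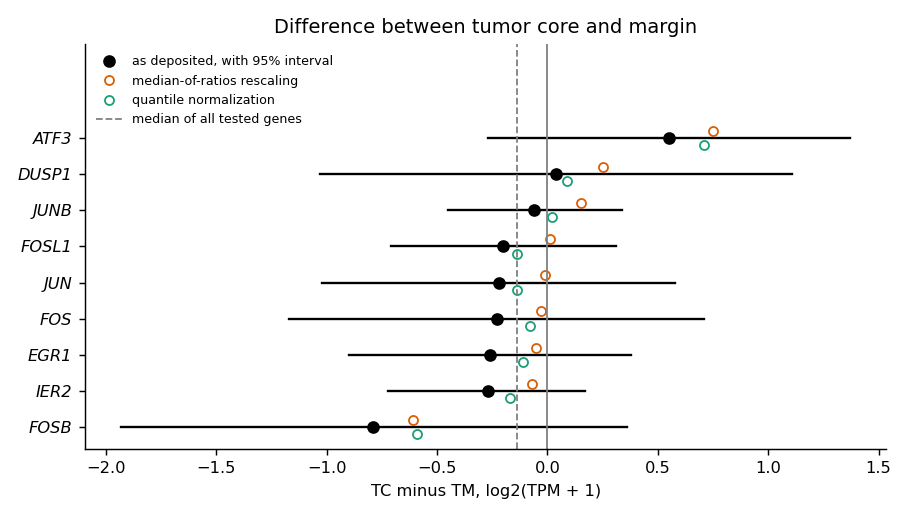
Difference between TC and TM on the log2(TPM + 1) scale for the 9 tested members, with the 95% interval of limma (line) and the values after median-of-ratios rescaling and quantile normalization (open points). Every interval crosses 0, from FOSB at -0.79 to ATF3 at 0.55, and the dashed line marks the median of all tested genes.

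The Fos proteins supply the partner that cannot form AP-1 alone. FOS (ENSG00000170345; chromosome 14, 75278774 to 75282230), whose promoter and AU-rich stretch are printed above, was at 9.21 (replicate 1), 8.67 (replicate 2) and 26.9 TPM (replicate 3) in TC, while the TM samples were at 21.4, 13.7 and 12.5 TPM. The highest and the 2 lowest values were all TC samples, so the TM samples lay inside the TC range. The log2 difference was -0.23 (SE 0.41, 95% interval -1.17 to 0.71, limma adjusted p = 0.840). Without TC replicate 3 it was -0.73 (limma adjusted p = 0.360).

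FOSB (ENSG00000125740; chromosome 19, 45467995 to 45475179), a close relative with the same rapid induction, was at 1.51, 2.08 and 6.77 TPM in TC and at 8.11, 8.04 and 2.75 TPM in TM. TC replicate 3 was near the 2 high TM samples, and TM replicate 3 was near the 2 low TC samples. It had the lowest point estimate of the tested members, with a log2 difference of -0.79 (SE 0.50, 95% interval -1.93 to 0.36, limma adjusted p = 0.507), which was -1.28 without TC replicate 3 and -1.21 without TM replicate 3 (limma adjusted p = 0.324 and 0.201). With any other sample left out it lay between -0.61 and -0.47. Host marker genes also differed between samples. In TC, 10 fibroblast markers summed to 66.3, 124 and 226 TPM, and in TM to 479, 1007 and 91.5 TPM. For 13 skeletal muscle markers the sums were 9.08, 11.7 and 8.26 TPM in TC against 261, 648 and 5.19 TPM in TM, with no marker of either list at 0 in every sample. Both sums shared with FOSB the high values of TM replicates 1 and 2 and the lower value of TM replicate 3. In TC replicate 3, where FOSB was high, the fibroblast sum was the highest of TC and the muscle sum the lowest. COL1A1 made up most of the fibroblast sum in every sample, and not all markers of that list followed it. FAP was at 2.98, 3.55 and 2.51 TPM in TM. Endothelial markers summed to 28.6, 29.2 and 33.7 TPM in TC and to 44.1, 40.1 and 31.4 TPM in TM. Macrophage and neutrophil markers summed to 95.5 to 107 TPM in TC and 103 to 109 TPM in TM. Adipocyte sums did not exceed 1.09 TPM or erythroid sums 6.93 TPM. The part of host cells in the FOSB values was not tested.

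FOSL1 (ENSG00000175592; chromosome 11, 65892049 to 65900573), the Fos relative of mesenchymal breast cancer cells, was at 93.5, 175 and 144 TPM in TC and at 138, 174 and 149 TPM in TM. TC replicate 1 was low and the other 5 samples lay close together. It differed by -0.20 on the log2 scale (SE 0.22, 95% interval -0.71 to 0.31, limma adjusted p = 0.731), and 0.06 without TC replicate 1.

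The share of each gene within its family does not change when a whole sample is multiplied by a common factor, as in median-of-ratios rescaling. It was not recomputed after quantile normalization, which can move genes unequally. Of the summed TPM of FOS, FOSB, FOSL1 and FOSL2, FOSL1 made up 73.7%, 85.5% and 71.5% in TC and 69.7%, 77.3% and 78.1% in TM. FOSL1 was the main Fos transcript in all 6 samples. FOS made up 4.23% to 13.3% in TC and 6.11% to 10.8% in TM, FOSB 1.02% to 3.35% and 1.44% to 4.10%, and FOSL2 9.27% to 17.8% and 13.0% to 15.3%. The mean FOSL1 share in TC was 76.9% ± 7.52, against 75.0% ± 4.62 in TM (SD, n = 3).

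The Jun proteins can pair with each other or with Fos partners. JUN (ENSG00000177606; chromosome 1, 58780788 to 58784327) was at 76.1, 122 and 60.2 TPM in TC and at 95.01, 61.7 and 152 TPM in TM. TC replicate 2 and TM replicate 3 were high, and TC replicate 3 and TM replicate 2 were low. Between zones JUN differed by -0.22 on the log2 scale (SE 0.35, 95% interval -1.02 to 0.58, limma adjusted p = 0.816), and 0.11 without TM replicate 3.

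JUNB (ENSG00000171223; chromosome 19, 12791496 to 12793315), in many settings a weaker activator than JUN, was at 80.2, 66.5 and 96.5 TPM in TC and at 83.5, 95.7 and 72.6 TPM in TM. It was the steadiest of the members, with 1.45-fold between the highest and the lowest sample. Between zones it differed by -0.06 on the log2 scale (SE 0.17, 95% interval -0.45 to 0.34, limma adjusted p = 0.912).

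Within the Jun family the shares of JUN and JUND, which sum with JUNB to the whole, ran opposite. Of the summed TPM of JUN, JUNB and JUND, whose TC mean of 293 ± 29.9 stood against a TM mean of 304 ± 5.51 (SD, n = 3), JUN made up 28.9%, 42.0% and 18.6% in TC and 31.7%, 19.9% and 50.4% in TM. The JUND share was 40.7%, 35.1% and 51.5% in TC, against 40.4%, 49.3% and 25.5% in TM, and it was lowest in the sample where JUN was highest. JUNB kept between 22.8% and 30.9% in all 6 samples.

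**Figure D3:**
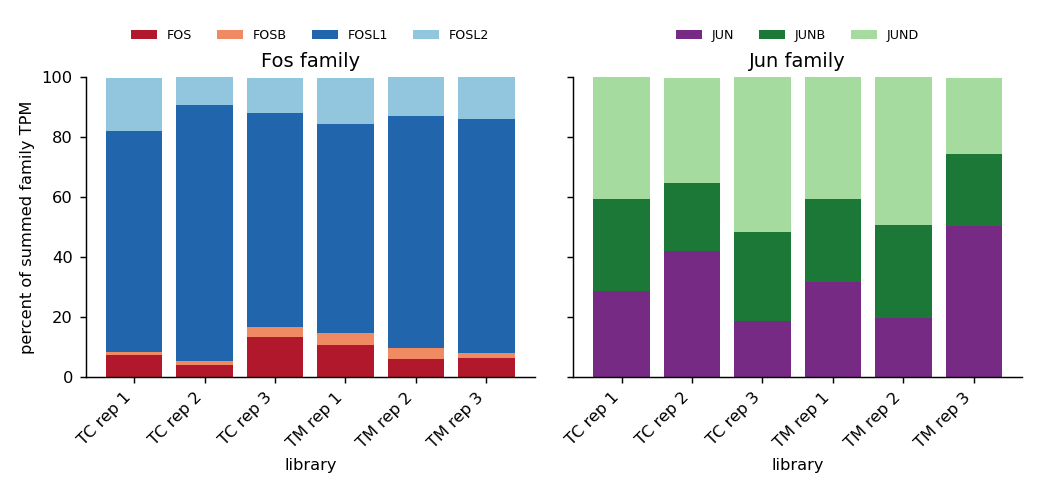
Share of each gene in the summed TPM of the Fos family (left) and the Jun family (right), in percent, by library. FOSL1 fills 69.7% to 85.5% of every Fos bar, and the JUN share ranges from 18.6% in TC replicate 3 to 50.4% in TM replicate 3.

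The EGR genes link MAP kinase signaling to growth and matrix genes. EGR1 (ENSG00000120738; chromosome 5, 138465490 to 138469315), the member with 2 CArG boxes in the promoter stretch printed above, was at 22.3, 30.2 and 47.4 TPM in TC and at 29.5, 45.9 and 41.2 TPM in TM. The TM samples lay inside the TC range. The log2 difference was -0.26 (SE 0.28, 95% interval -0.90 to 0.38, limma adjusted p = 0.717), and it ranged from -0.54 without TC replicate 3 to -0.01 without TC replicate 1.

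EGR3 (ENSG00000179388, chromosome 8), the other EGR gene among the members, was at 0.24, 0.15 and 0.09 TPM in TC and at 0.57, 0.46 and 0.41 TPM in TM. It was the only member whose zones did not overlap, and the TC mean was 0.16 ± 0.0755 TPM against a TM mean of 0.48 ± 0.0819 TPM (SD, n = 3). All 6 values were below 1 TPM, and TPM keeps no read count by which their precision could be judged. In a fit without a filter on low values the log2 difference was -0.35 (SE 0.09, limma adjusted p = 0.248), so EGR3 was not called there either.

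ATF3 (ENSG00000162772; chromosome 1, 212565334 to 212620777) is induced by amino acid shortage, DNA damage and other stresses. It was at 11.7, 13.7 and 29.4 TPM in TC and at 9.08, 16.0 and 9.57 TPM in TM. TC replicate 3 was the highest, and TM replicate 2 lay above the other 2 TC samples. Its point estimate was the highest of the members, with a log2 difference of 0.55 (SE 0.36, 95% interval -0.27 to 1.37, limma adjusted p = 0.518). It was 0.75 after median-of-ratios rescaling, and with a sample left out it ranged from 0.16 without TC replicate 3 to 0.80 without TC replicate 1.

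IER2 (ENSG00000160888; chromosome 19, 13150415 to 13154908) was at 47.8, 62.5 and 55.1 TPM in TC and at 61.0, 55.2 and 87.2 TPM in TM. TM replicate 3 was the highest and the other 5 samples lay between 47.8 and 62.5 TPM. IER2 differed by -0.27 on the log2 scale (SE 0.20, 95% interval -0.72 to 0.17, limma adjusted p = 0.561), and with a sample left out it ranged from -0.41 without TM replicate 2 to -0.08 without TM replicate 3.

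DUSP1 (ENSG00000120129; chromosome 5, 172768090 to 172771195), the phosphatase that closes the relay, was at 193, 88.6 and 177 TPM in TC and at 221, 193 and 65.5 TPM in TM. Each zone held 1 low sample, TC replicate 2 and TM replicate 3. The log2 difference was 0.04 (SE 0.47, 95% interval -1.03 to 1.11, limma adjusted p = 0.982), with -0.51 without TM replicate 3 and 0.39 without TC replicate 2.

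The members varied more within a zone than most genes. The SD within zones on the log2(TPM + 1) scale had a median of 0.56 over the 9 tested members and of 0.27 over all tested genes, and 8 of the 9 lay above the latter. Among genes with a mean of at least 5 TPM the medians were 0.50 over 8 members and 0.24 over 9748 genes. FOSB (0.81) and DUSP1 (0.80) each exceeded 96.3% of all tested genes, FOS (0.67) exceeded 93.8%, JUN (0.58) 91.0%, ATF3 (0.56) 89.8% and EGR1 (0.44) 80.4%. FOSL1 (0.35), IER2 (0.28) and JUNB (0.23) exceeded 67.1%, 51.8% and 40.2%. The share of the variation lying between the zone means was 0.0849% in DUSP1 and 2.20% to 11.5% in JUNB, FOS, JUN, FOSL1 and EGR1. It was 26.3% to 26.9% in ATF3, FOSB and IER2. This share was not corrected for the small number of samples, so it exceeds 0 on average without any zone effect. The median was 10.9% over the 9 members and 20.7% over all tested genes.

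**Figure D4:**
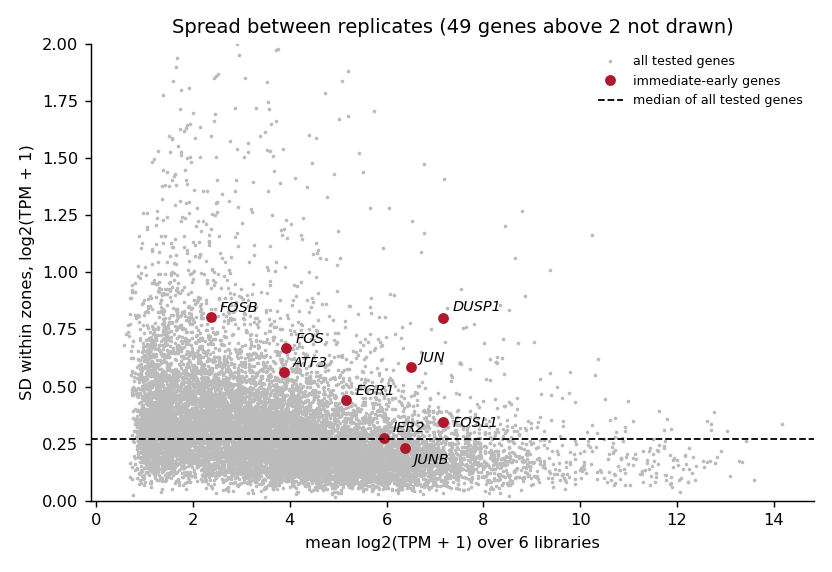
SD within zones against mean level, both on the log2(TPM + 1) scale, for all tested genes (grey) and the 9 tested members (red). All members but JUNB lie above the dashed line at the median of 0.27, and 49 genes with an SD above 2 are not drawn.

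Part of the spread had a shape that crossed the zones. In TC replicate 3, 4 of the 9 members (FOS, JUNB, EGR1 and ATF3) had their highest value of all samples, and JUN had its lowest. In TC replicate 1, 4 members were at their lowest (FOSB, FOSL1, EGR1 and IER2). Over the 9 members the root mean square log2 difference between libraries was smallest for TC replicate 2 with TM replicate 3 (0.38) and for TC replicate 3 with TM replicate 2 (0.43). Both pairs joined different zones, while the other cross-zone pairs ranged from 0.64 to 1.00 and the pairs within a zone from 0.46 to 0.95. JUN was high and DUSP1 low in the first pair, and the reverse held in the second. Over all 13861 tested genes, deviations from the zone means correlated highest for TC replicate 3 with TM replicate 2 (0.317). Next came TC replicate 1 with TM replicate 1 (0.211) and TC replicate 2 with TM replicate 3 (0.145). Genes are not independent replicates, and the samples numbered 1 lay 0.79 apart over the members. The levels themselves correlated at 0.966 to 0.973 within TC and at 0.942 to 0.968 within TM. They correlated at 0.960 for TC replicate 3 with TM replicate 2 and at 0.951 for TC replicate 2 with TM replicate 3. The levels of TC replicate 2 correlated more with TM replicates 1 (0.964) and 2 (0.956), and the samples numbered 1 correlated at 0.962. The pattern in this spread was noticed after the values were seen and was not tested.

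**Figure D5:**
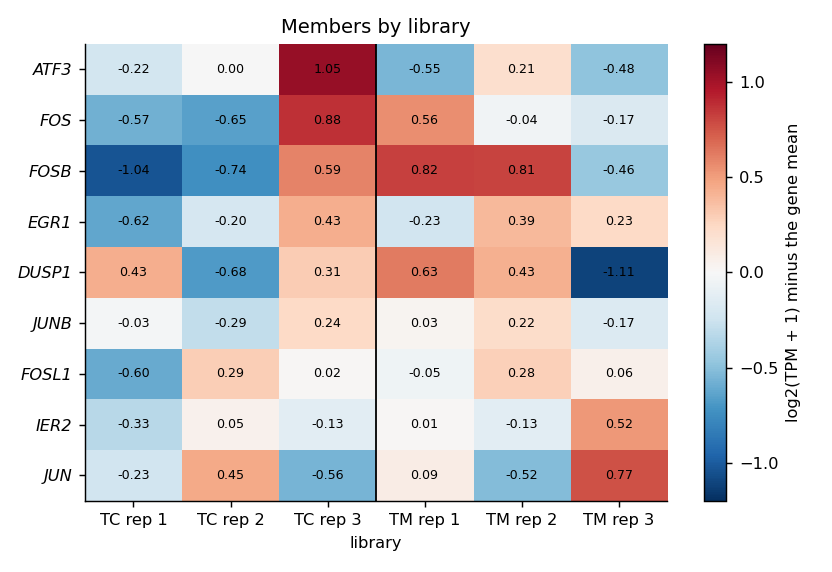
log2(TPM + 1) of the 9 tested members in each library, minus the mean of the gene over 6 libraries, with the zones parted by a black line. TC replicate 3 is above the mean for FOS (0.88) and ATF3 (1.05) and below it for JUN (-0.56), while TM replicate 3 is at 0.77 for JUN and -1.11 for DUSP1.

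The other subunits of AP-1 were then examined. Of 8 genes 6 were tested and 0 were called, with a median log2 difference of -0.08. Only 1 had an unadjusted p-value under 0.05 (16.2% of all tested genes). This was FOSL2, a steadily expressed Fos relative, at 22.6, 19.0 and 23.9 TPM in TC and at 30.3, 29.2 and 26.7 TPM in TM, without overlap (log2 difference -0.39, SE 0.16, limma adjusted p = 0.275). JUND, the Jun form of resting cells, lay between 77.2 and 166 TPM, BATF3 between 11.2 and 21.4, ATF2 between 9.53 and 19.6, ATF7 between 13.8 and 21.2, and JDP2, a repressor of AP-1, between 3.57 and 6.07 TPM. BATF did not exceed 0.93 TPM or BATF2 1.5 TPM. Of the Fos partners, FOSL1 was the most abundant and FOSL2 the next in 5 of 6 samples, FOS being above FOSL2 in TC replicate 3.

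In the EGR family, EGR2 was at 0.21, 0.95 and 0.71 TPM in TC and at 2.69, 0.46 and 0.47 TPM in TM, and EGR4 was listed at 0 in all 6 samples. The corepressors NAB1 and NAB2, which bind EGR proteins, lay at 8.87 to 15.7 and at 23.6 to 27.8 TPM, and 0 of the 2 were called (limma adjusted p = 0.992 and 0.935).

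Of 24 further immediate-early genes 22 were tested and 0 were called. Their median log2 difference was -0.13, with 17 lower and 5 higher in TC (9 and 13 after median-of-ratios rescaling), and 2 had an unadjusted p-value under 0.05. MYC was at 98.2, 108 and 109 TPM in TC and at 200, 140 and 133 TPM in TM (log2 difference -0.56, SE 0.17, limma adjusted p = 0.168). ZFP36, which binds AU-rich elements and speeds the decay of such messages, was at 11.0, 8.42 and 11.3 TPM in TC and at 16.0, 14.4 and 17.5 TPM in TM (log2 difference -0.60, SE 0.19, limma adjusted p = 0.177). The zones did not overlap in either gene, nor in 1 more of the list, 3 of 22 in all. Over all tested genes, 22.2% did not overlap and 16.2% had an unadjusted p-value under 0.05.

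Upstream of the members, 18 kinases and transcription factors were tested and 0 were called. The median log2 difference was -0.15, close to that of all genes, and became 0.05 after median-of-ratios rescaling. Of the 18, 2 had an unadjusted p-value under 0.05, both lower in TC. Among all tested genes, 14.2% passed that threshold with lower values in TC, so the list did not exceed this share. SRF, which binds the CArG box, was at 20.1, 21.0 and 19.3 TPM in TC and at 30.3, 29.7 and 25.1 TPM in TM (log2 difference -0.47, SE 0.15, limma adjusted p = 0.181). Its coactivator MRTFA was at 17.9, 15.3 and 13.3 TPM in TC and at 26.4, 21.9 and 19.6 TPM in TM (log2 difference -0.52, SE 0.19, limma adjusted p = 0.226). Median-of-ratios rescaling brought the differences to -0.27 for SRF, -0.32 for MRTFA, -0.35 for MYC, -0.40 for ZFP36 and -0.18 for FOSL2, with limma adjusted p-values of 0.451, 0.397, 0.408, 0.403 and 0.666.

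Of 9 other MAP kinase phosphatases 7 were tested and 0 were called, with a median log2 difference of -0.15. All 7 had negative point estimates (3 of 7 after median-of-ratios rescaling), but those of DUSP6 and DUSP10 were only -0.00. Of all tested genes 67.0% were lower in TC, and 6052 of 13823 after median-of-ratios rescaling. DUSP7 had an unadjusted p-value under 0.05, at 23.9, 26.3 and 21.8 TPM in TC and 33.8, 30.2 and 29.9 TPM in TM (log2 difference -0.37, SE 0.15, limma adjusted p = 0.271), and the difference became -0.17 after median-of-ratios rescaling. A list of 8 factors of AU-rich RNA turnover included ELAVL1, which is known to stabilize such messages. Of these 8, 0 were called and all 8 had negative point estimates, also after both other scalings. Over all tested genes 67.0% were lower in TC. The median of the 8 was -0.35 against -0.14 over all genes, and -0.14 against 0.05 after median-of-ratios rescaling. The 2 with an unadjusted p-value under 0.05 (14.2% of all tested genes were lower in TC at that threshold) were ZFP36 and CNOT1, a scaffold of the deadenylase complex, at 86.6, 75.5 and 96.4 TPM in TC and 124, 97.8 and 119 TPM in TM (log2 difference -0.39, SE 0.15, limma adjusted p = 0.248). The CNOT1 difference became -0.18 after median-of-ratios rescaling.

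Downstream, 10 of 14 known AP-1 target genes were tested, 0 were called and 0 had an unadjusted p-value under 0.05, with 5 higher and 5 lower in TC (9 and 1 after median-of-ratios rescaling). The largest point estimates belonged to CXCL8, IL6 and MMP1. CXCL8, a neutrophil attractant, was at 188, 55.6 and 450 TPM in TC and at 42.6, 219 and 34.5 TPM in TM. IL6, an inflammatory cytokine, was at 18.5, 3.08 and 42.1 TPM in TC and at 5.87, 33.9 and 2.19 TPM in TM. Both were highest in TC replicate 3 and TM replicate 2, the pair that was also alike over the members, and lowest in TM replicate 3. MMP1, a collagenase, was at 10.7, 1.99 and 1.84 TPM in TC and at 2.25, 4.69 and 2.30 TPM in TM.

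Finally, the genes whose profile over the 6 samples was most like that of FOS or EGR1 were listed, by root mean square distance of centered log2(TPM + 1). For FOS these were TROAP (0.22), ENSG00000281091 (0.25), RRAD (0.28), KLF2 (0.29) and H3C2 (0.29). The nearest member was FOSB (0.44), at rank 460 of all tested genes, and JUN (0.89) was at rank 12944. KLF2, itself an immediate-early gene, was at 7.66, 9.66 and 15.7 TPM in TC and at 14.8, 11.1 and 11.9 TPM in TM. For EGR1 they were SNHG15 (0.08), PDCD4-AS1 (0.09), CHN2 (0.09), CCNT2-AS1 (0.10) and FAM86B3P (0.13). The nearest member was FOSL1 (0.29), at rank 275. With 6 samples such rankings describe these libraries only.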

How the data were processed

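RNA had been extracted from 3 TC and 3 TM samples of MDA-MB-231 xenografts, and the titles gave each sample's zone and number. According to the methods, the authors trimmed paired reads with SeqPrep and Sickle, aligned them with HISAT2, assembled them with StringTie, quantified genes with RSEM and deposited TPM, which sum to 1000000 in 5 columns and to 994381 in TM replicate 3. The submitters' processing notes name hg38. The annotation release was not given in the sources used here. TPM keeps no depth, so precision was judged from replicates, and the count model of the study could not be run. The number of other value columns was 0.

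Of 60930 features, 259 assembled loci were left out. Symbols were found for 60401 of 60671 genes, gene positions came from GENCODE v29 (GRCh38), and promoters came from RefSeq (GRCh38.p14). Genes reaching 1 TPM in 3 or more samples were compared as log2(TPM + 1) with limma 3.58.1, run under R 4.3.3 (moderated with a mean trend, two-sided, no covariate), with Benjamini-Hochberg adjustment over 13861 genes and a threshold of 0.05. Differences are TC minus TM, and the pseudocount understates changes of low genes. The script was tested on simulated data. Sums, shares and distances were computed with pandas 2.3.3 and are descriptions. The members and lists were chosen with earlier results of these data known. Genes named are all members, all other AP-1 and EGR family genes, list genes with an unadjusted p-value under 0.05 or else the 3 largest point estimates, and the 5 nearest profiles of FOS and EGR1. Of 14 skeletal muscle markers 13 were matched. Alternatives were the pseudocount, filters, scalings, a replicate block, other moderation and leaving out each sample.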

Additional observations from a re-analysis of the deposited data

Results flagged for a closer look

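The loci assembled outside the annotation entered no comparison but held expression. In TC they summed to 2199.5 TPM (replicate 1), 1722.8 TPM (replicate 2) and 2643.0 TPM (replicate 3). The TM sums were 1573.7 TPM (replicate 1), 1889.4 TPM (replicate 2) and 21.1 TPM (replicate 3).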

How the results depend on the processing

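The number of members called was 0 in every alternative run (pseudocount of 0.1, no filter, a mean of at least 5 TPM, which left out FOSB, quantile normalization, median-of-ratios rescaling, removal of mitochondrially encoded genes, replicate block, other moderation, and each sample left out), and the lowest adjusted p-value of a tested member was 0.201 (limma). The 7 pathway lists also held 0 called genes in all of them. Over all genes the count of 19 became 7 with a pseudocount of 0.1, 1 without a filter, 4 after quantile normalization, 6 after median-of-ratios rescaling, 12 without a trend and 47 with robust moderation, and it ranged from 1 to 17 with a sample left out. Of 134 alternative differences of the 9 members, 120 kept the direction and 14 turned. FOSL1 turned to 0.01 and JUNB to 0.15 after median-of-ratios rescaling, JUNB to 0.02 after quantile normalization, and DUSP1 to -0.01 without mitochondrially encoded genes. With a sample left out, the log2 difference ranged from -0.73 to 0.04 for FOS, -0.39 to 0.06 for FOSL1, -0.54 to 0.11 for JUN, -0.19 to 0.08 for JUNB and -0.51 to 0.39 for DUSP1. The cause was not tested.

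With the replicate number as a block, 1 gene was called and 0 members were. Deviations of same-numbered samples from their zone means correlated at 0.211, -0.121 and -0.165 over genes for replicates 1, 2 and 3. The highest correlations were 0.317 for TC replicate 3 with TM replicate 2, then 0.211 for the samples numbered 1. After these came 0.145 for TC replicate 2 with TM replicate 3. Each deviation was taken from a mean of 3 samples, and host marker sums also differed between TM samples. Whether samples of the same number came from the same tumor therefore stays unknown. Depth was unknown, which limits low genes such as EGR3.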
